A study of Homo sapiens with 6 samples.

Results

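The sterol and fatty acid synthesis genes are 30 listed genes that make, take up or move cholesterol and fatty acids, or regulate those processes. They were chosen by name, and each was read from its brightest probe set that carried a single gene symbol. Of the 30 genes, 27 had such a probe set and all 27 passed the filter of a mean log2 value of at least 5, among 12317 genes tested of 19775 with a probe set. They comprise 3 regulators, 13 enzymes of sterol synthesis (the sterol arm), 4 genes of sterol transport and 7 enzymes of fatty acid synthesis and lipid assembly (the fatty acid arm). The enzyme genes FDFT1, CYP51A1 and FADS1 had no single-symbol probe set and are not analysed here.

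The cells were HCA-7, a human cell line from a colorectal cancer that forms colonies of different shape in a collagen gel. A spiky clone (sc1) and a cystic clone (cc3) were each grown in type 1 collagen, and the RNA of the gel layer that held the cells was hybridised to Affymetrix 133 Plus 2.0 arrays on day 5, 10 and 15. The 6 arrays thus comprised 3 spiky and 3 cystic samples, 1 array per clone and day, with no treatment and no change of genotype named in the labels. Each shape was represented by 1 clone, so shape and clone cannot be told apart, and the days of a clone were the only replicates. Nothing says that the arrays came from separate cultures, so the spread behind each p-value may be technical. With day as a factor, that spread is the departure of the clones from a parallel change over days. A real difference between the clones in their change over days therefore widens it.

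Cells sense sterols in the membrane of the endoplasmic reticulum. When sterols are scarce, the SREBP transcription factors, encoded by SREBF1 and SREBF2, are carried to the Golgi apparatus, cut and released to the nucleus, where they switch on genes of cholesterol and fatty acid synthesis. INSIG proteins hold them back when sterols are plentiful. The products supply membranes of growing cells, which include the cells of the intestinal lining and of its tumours.

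Values are log2 expression after RMA, and a difference of 1 on this scale is a doubling of the signal. Array medians lay between 5.18 and 5.34, and the difference between the 3' and 5' probe sets of ACTB, a sign of RNA integrity, was 2.73, 2.74 and 3.10 at day 5, 10 and 15 in spiky colonies, against 2.83, 3.18 and 3.28 in cystic colonies. Of 9 epithelial marker genes 6 had a mean of at least 5, EPCAM, KRT8, KRT18, KRT19, CDH1 and VIL1, while the colon-type markers KRT20, CEACAM5 and CDX2 did not. The mean level of the epithelial list was 8.17 to 8.43 in spiky and 8.27 to 8.65 in cystic colonies. Of other cell types, 2 of 9 fibroblast, 3 of 7 measured leukocyte and 2 of 6 adipocyte markers reached a mean of 5. The mean level of the fibroblast list was 4.11 to 4.30 in spiky and 4.14 to 4.44 in cystic colonies, that of the leukocyte list 3.99 to 4.22 in spiky and 4.18 to 4.39 in cystic colonies, and that of the adipocyte list 4.13 to 4.27 in spiky and 3.98 to 4.16 in cystic colonies. In bulk RNA, fewer cells of a type and less RNA per cell cannot be told apart.

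SREBPs bind DNA together with the factor NF-Y. The promoters shown are those of the 5 members whose level in the spiky clone was over log2 1 higher at day 15 than at day 10, a choice made after the values were seen. Each sequence runs from 250 bases before to 50 bases after the gene's start, from RefSeq on GRCh38.p14, 5′ to 3′ on the strand of the gene. Capitals mark the sterol regulatory element TCACNCCAC, the E-box form TCACGTGA and the NF-Y box CCAAT, searched on both strands (the box reads ATTGG on the other strand). The windows lie at chr22:41832855-41833154 (plus strand), chr7:155297628-155297927 (plus strand), chr4:165327419-165327718 (plus strand), chr5:111512486-111512785 (minus strand) and chr10:100346983-100347282 (plus strand).
SREBF2: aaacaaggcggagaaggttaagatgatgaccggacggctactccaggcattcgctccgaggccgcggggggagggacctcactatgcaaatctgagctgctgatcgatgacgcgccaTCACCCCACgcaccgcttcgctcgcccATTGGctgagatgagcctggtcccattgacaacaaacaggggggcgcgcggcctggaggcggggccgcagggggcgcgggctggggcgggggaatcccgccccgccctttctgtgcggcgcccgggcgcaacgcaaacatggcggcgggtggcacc
INSIG1: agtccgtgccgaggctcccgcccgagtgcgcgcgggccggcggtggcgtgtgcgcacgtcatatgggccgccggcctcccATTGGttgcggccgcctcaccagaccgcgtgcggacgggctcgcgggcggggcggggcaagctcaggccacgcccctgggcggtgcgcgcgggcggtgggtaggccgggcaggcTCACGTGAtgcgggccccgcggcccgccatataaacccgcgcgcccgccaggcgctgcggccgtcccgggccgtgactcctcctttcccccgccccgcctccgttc
MSMO1: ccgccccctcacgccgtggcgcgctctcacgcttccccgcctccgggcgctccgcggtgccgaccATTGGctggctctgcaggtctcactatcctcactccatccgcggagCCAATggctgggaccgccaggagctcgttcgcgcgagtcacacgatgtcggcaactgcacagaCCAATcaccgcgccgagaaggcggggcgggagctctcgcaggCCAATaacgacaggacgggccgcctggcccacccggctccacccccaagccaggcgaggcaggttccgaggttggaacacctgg
STARD4: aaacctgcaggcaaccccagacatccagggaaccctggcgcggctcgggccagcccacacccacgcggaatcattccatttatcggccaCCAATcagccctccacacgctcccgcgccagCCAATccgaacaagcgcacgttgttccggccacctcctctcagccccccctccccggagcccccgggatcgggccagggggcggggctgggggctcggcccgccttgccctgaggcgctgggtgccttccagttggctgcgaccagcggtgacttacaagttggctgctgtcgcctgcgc
SCD: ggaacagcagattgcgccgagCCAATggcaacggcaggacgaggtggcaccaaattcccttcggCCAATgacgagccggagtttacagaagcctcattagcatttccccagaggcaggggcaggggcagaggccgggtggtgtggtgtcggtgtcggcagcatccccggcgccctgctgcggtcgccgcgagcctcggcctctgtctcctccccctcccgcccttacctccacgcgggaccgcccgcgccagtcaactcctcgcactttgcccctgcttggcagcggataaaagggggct

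In these windows SREBF2 held the sterol regulatory element, which starts 133 bases before the gene's start, with an NF-Y box 106 bases before it. INSIG1 held the E-box form 56 bases before its start and an NF-Y box at 170 bases. MSMO1 held 4 NF-Y boxes, and STARD4 and SCD 2 each. Of the 30 genes 26 had 1 or more windows in the RefSeq table, and 20 of the 26 (76.9%) held an NF-Y box, against 39.7% of all 27305 genes with a window. The searched form of the sterol regulatory element occurred in 1 of the 26 genes (3.85%), against 1.39% of all genes. The E-box form occurred in 1 of the 26, against 1.18% of all genes. Counted by window, 1.13%, 0.98% and 34.6% of all 35116 windows held the sterol regulatory element, the E-box form and the NF-Y box. None of the searched motifs overlapped another in the 5 windows shown. A match describes the letters only, since no binding was measured. Other forms of the element and bases outside the windows were not searched. The lack of a match thus does not mean that a gene has no such element.

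Spiky and cystic colonies were first compared over the whole culture. Taken over all 3 days the genes differed little: 1 of 27 passed, LSS, against 11.4% of all tested genes (3.65% higher and 7.74% lower). LSS encodes lanosterol synthase, which closes the first sterol ring system. Its level was 7.27, 7.00 and 7.58 at day 5, 10 and 15 in spiky colonies, against 8.43, 8.58 and 8.42 in cystic colonies. Every spiky array lay below every cystic array on the chosen probe set. The other bright LSS probe sets also averaged lower in spiky colonies, by -0.54 and -1.43. On the first of these the spiky day 15 array, at 7.55, lay above all cystic arrays. LSS averaged 7.28 ± 0.29 in spiky and 8.48 ± 0.09 in cystic colonies (SD over days, n = 3 each), a fitted difference of -1.19 (SE 0.17, 2.29-fold lower in spiky; limma with Benjamini-Hochberg adjustment over all genes, adjusted p = 0.00271). LSS lies on chromosome 21, where the 136 tested genes had a median spiky minus cystic difference of -0.59, with 88 lower and 0 higher. LSS ranked 9 from the lowest of them. With culture day left out of the model, LSS did not pass (limma, adjusted p = 0.0625).

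No other member passed when the days were averaged. ELOVL6, which lengthens palmitate to stearate, was the only other gene whose arrays did not overlap, with levels of 11.01, 11.08 and 10.96 in spiky, against 10.68, 10.96 and 10.51 in cystic colonies. The gap was very small, since the spiky day 15 array read 10.965 and the cystic day 10 array 10.9635. Such non-overlap held for 2 of 27 members and 15.6% of all tested genes. On the other bright ELOVL6 probe sets the average spiky minus cystic difference was 0.37 and -0.13. The fitted ELOVL6 difference was 0.30 (SE 0.08; limma, Benjamini-Hochberg adjusted p = 0.0528). It did not pass, and passed when dim genes under a mean of 6 were left out or when the arrays were centred or scaled by cyclic loess. It also did not pass with no filter, the mean of all probe sets, no intensity trend, day left out of the model, or any single array left out. The arms had like medians: the median fitted difference was -0.14 in the sterol arm, -0.14 in the fatty acid arm and -0.03 over all tested genes. The sterol arm's genes ranged from -1.19 to 0.34 and the fatty acid arm's from -0.28 to 0.30. The likeness rested on single arrays. Without either day 15 array the medians were -0.40 in the sterol arm and -0.12 in the fatty acid arm, and without either day 10 array 0.12 in the sterol arm and -0.06 in the fatty acid arm. Without either day 5 array they were -0.02 in the sterol arm and -0.08 in the fatty acid arm.

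The averages over days held opposite differences, because the spiky clone was the lower one early and the higher one late. At day 5, 19 of 27 genes were lower in spiky colonies, with a median difference of -0.22. At day 10, 24 of 27 were lower, with a median of -0.33. At day 15, 21 of 27 were higher, with a median of 0.30. Over all tested genes the medians were 0.00, -0.08 and -0.02. Of all 12317 tested genes 6087 were lower in spiky colonies at day 5 and 7422 at day 10, and 5866 were higher at day 15. Every one of these values compares 1 array with 1 array. The sterol transport genes were higher in spiky colonies at day 15 in 4 of 4 cases, the fatty acid arm in 6 of 7, the sterol arm in 9 of 13 and the regulators in 2 of 3.

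**Figure D1:**
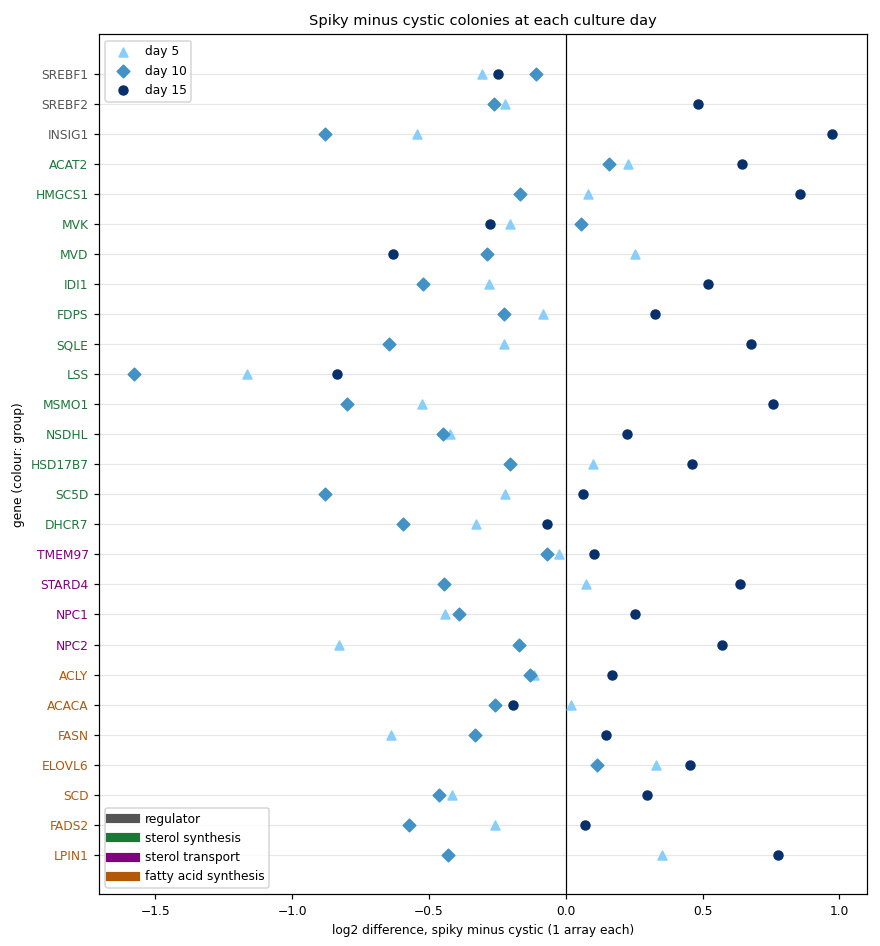
Difference between spiky and cystic colonies (log2, x axis) for each of the 27 genes (y axis, coloured by group) at day 5 (triangles), day 10 (diamonds) and day 15 (circles), each from 1 array per clone. At day 15, 21 of 27 genes lie right of 0, while at day 10 24 of 27 lie left of it.

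With either day 15 array left out, the clones were compared at day 5 and 10 alone, and 10 of 27 members passed, all lower in spiky colonies. Over all tested genes 11.4% passed as lower without the spiky day 15 array, and 11.4% without the cystic one. The 10 genes were the regulator INSIG1, the sterol enzymes IDI1, SQLE, LSS, MSMO1, NSDHL and DHCR7, the transporters NPC1 and NPC2, and the desaturase SCD. At least 1 other bright probe set of IDI1, SQLE and NPC1 was higher in spiky colonies at both day 5 and day 10. Without the spiky day 15 array INSIG1 differed by -0.71 (SE 0.11; limma, Benjamini-Hochberg adjusted p = 0.000646) and MSMO1 by -0.66 (SE 0.09; adjusted p = 0.000183). Without the cystic day 15 array these adjusted p-values were 0.000482 for INSIG1 and 0.000142 for MSMO1, with the same differences. SCD differed by -0.44 (1.36-fold lower in spiky; limma, adjusted p = 0.00188 without the spiky and 0.00169 without the cystic day 15 array). These fits leave 1 residual degree of freedom.

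Of the 3 regulators, INSIG1 and SREBF2 changed order between day 10 and day 15 and SREBF1 did not. INSIG1, which retains SREBPs in the endoplasmic reticulum, stood at 9.00, 9.00 and 10.58 at day 5, 10 and 15 in spiky colonies, against 9.55, 9.88 and 9.60 in cystic colonies. The spiky day 15 array was the highest of the 6 and the other spiky arrays were the lowest. SREBF2, which encodes the SREBP that mainly drives sterol synthesis, had 8.39, 8.03 and 9.08 in spiky colonies, against 8.61, 8.29 and 8.59 in cystic colonies. Its spiky day 15 array was again the highest. SREBF1, which encodes the SREBP forms that mainly drive fatty acid synthesis, had 6.53, 6.80 and 7.06 in spiky colonies, against 6.83, 6.91 and 7.30 in cystic colonies. It was higher at each later day in both clones, and lower in spiky colonies on all 3 days. The other bright SREBF1 probe set was also lower in spiky colonies on all 3 days. It was lowest at day 10 in both clones, at 5.73 in spiky and 5.83 in cystic colonies.

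**Figure D2:**
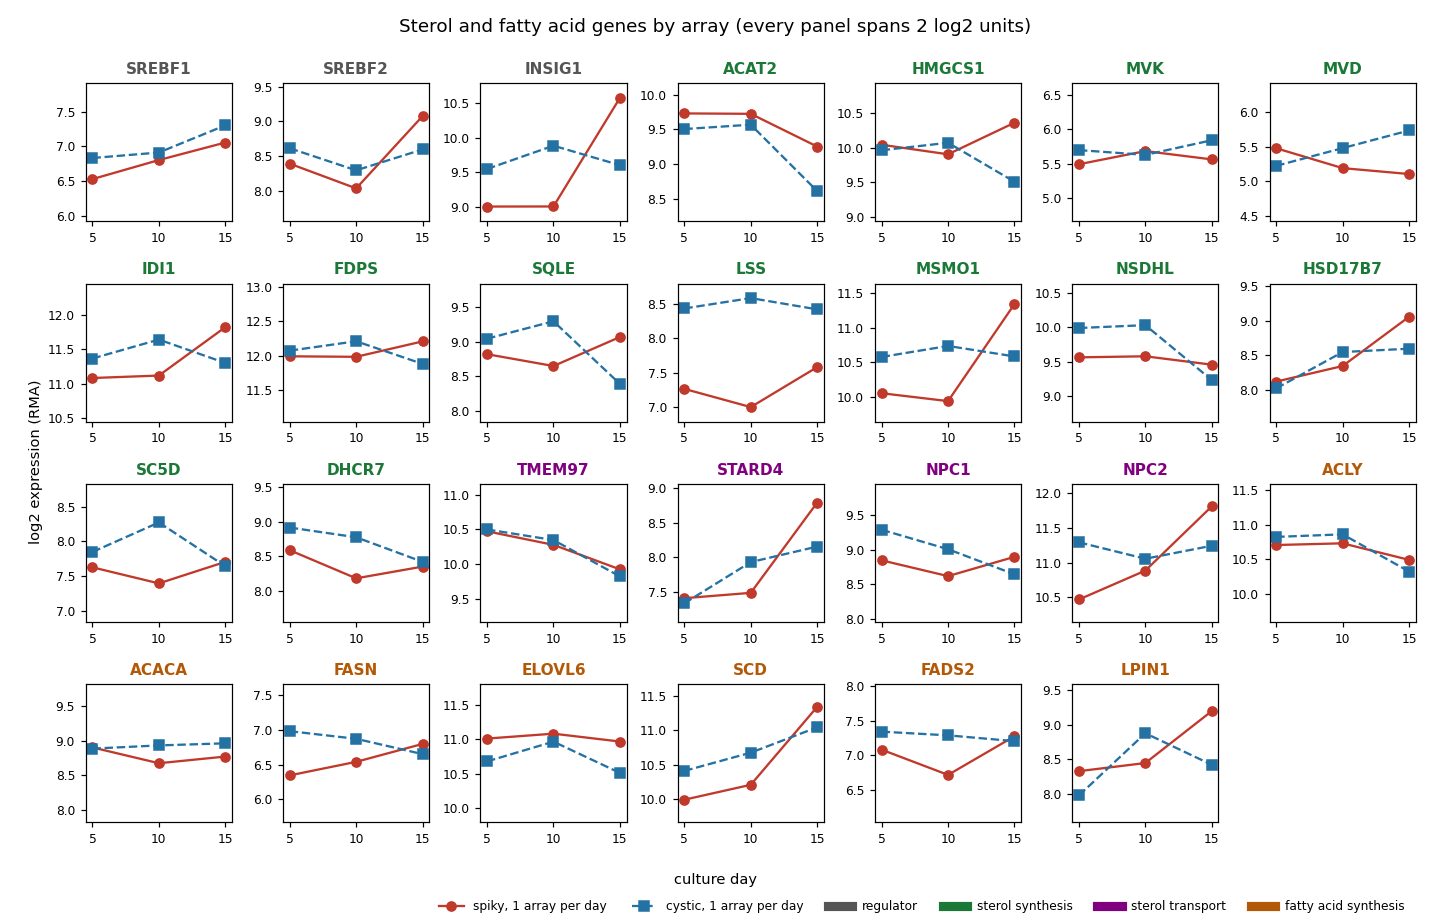
Level (log2 after RMA, y axis, every panel spanning 2 units) of each of the 27 genes by culture day (x axis) in spiky colonies (circles, solid line) and cystic colonies (squares, dashed line), 1 array per point, with gene names coloured by group. INSIG1, MSMO1 and STARD4 have their highest point at day 15 in the spiky clone, and LSS is the gene whose lines stay apart by the most.

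The early enzymes of the sterol arm build isoprenoid units from acetyl-CoA. HMGCS1, which makes HMG-CoA, had 10.04, 9.90 and 10.36 in spiky colonies at day 5, 10 and 15, against 9.96, 10.07 and 9.50 in cystic colonies. IDI1, the isomerase of isopentenyl diphosphate, had 11.08, 11.12 and 11.82 in spiky colonies, against 11.36, 11.64 and 11.30 in cystic colonies. In both genes day 15 was the highest array of the spiky clone and the lowest of the cystic clone on the chosen probe set. That of IDI1 is of a type that can also detect related sequences. On the other bright IDI1 probe sets the spiky change from day 10 to day 15 was 0.70, -0.50 and -0.53. FDPS, which joins the units to farnesyl diphosphate, had 11.99, 11.99 and 12.21 in spiky colonies, against 12.08, 12.21 and 11.88 in cystic colonies. MVK and MVD, which phosphorylate and decarboxylate mevalonate, were the dimmest members, with levels of 5.50 to 5.69 for MVK and 5.11 to 5.48 for MVD in spiky colonies, and 5.63 to 5.84 for MVK and 5.23 to 5.74 for MVD in cystic colonies.

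Several enzymes act on squalene and the sterol ring. Of these, SQLE, MSMO1, NSDHL, HSD17B7 and SC5D were lower in spiky colonies at day 10 and higher at day 15. LSS and DHCR7 stayed lower on all 3 days on their chosen probe sets. Another bright probe set of each was higher in spiky colonies at day 15, at 7.55 against 7.43 for LSS and 6.99 against 6.67 for DHCR7. The remaining LSS probe set was lower, at 6.43 in spiky against 7.50 in cystic colonies. SQLE, the squalene epoxidase, had 8.82, 8.65 and 9.07 in spiky colonies, against 9.05, 9.30 and 8.39 in cystic colonies. MSMO1, which removes methyl groups from early sterols, had 10.05, 9.94 and 11.34 in spiky colonies, against 10.58, 10.74 and 10.58 in cystic colonies. For MSMO1 the spiky clone moved and the cystic arrays stayed within 0.16 of each other, whereas for SQLE the larger late step was the cystic decrease. NSDHL, the next dehydrogenase, had 9.56, 9.58 and 9.46 in spiky colonies, against 9.99, 10.03 and 9.23 in cystic colonies. SC5D, a desaturase near the end of the pathway, had 7.63, 7.39 and 7.70 in spiky colonies, against 7.85, 8.27 and 7.64 in cystic colonies. DHCR7, the last reductase, had 8.59, 8.18 and 8.35 in spiky colonies, against 8.92, 8.78 and 8.42 in cystic colonies.

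Over culture time, with both clones fitted together, 6 of 27 members passed between day 15 and day 5, 3 higher and 3 lower. Of all tested genes 32.3% passed (10.4% higher and 21.9% lower). STARD4, a soluble carrier that moves cholesterol between membranes, had 7.41, 7.48 and 8.79 at day 5, 10 and 15 in spiky colonies, against 7.33, 7.93 and 8.15 in cystic colonies. It rose 2.15-fold at day 15 relative to day 5 (log2 1.10, SE 0.24; limma, Benjamini-Hochberg adjusted p = 0.00899). SCD, which puts the first double bond into stearate and palmitate, had 9.99, 10.21 and 11.34 in spiky colonies, against 10.41, 10.67 and 11.04 in cystic colonies. SCD rose 1.98-fold (log2 0.99, SE 0.17; limma, adjusted p = 0.00319), and its 3 other bright probe sets had the same sign. HSD17B7, a sterol ketone reductase, had 8.12, 8.34 and 9.06 in spiky colonies, against 8.02, 8.55 and 8.59 in cystic colonies. It rose 1.69-fold (log2 0.76, SE 0.18; limma, adjusted p = 0.0134), read from a probe set of a type that can also detect related sequences.

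The genes that fell at day 15 relative to day 5 did so in both clones. ACAT2, which condenses acetyl-CoA at the head of the sterol arm, had 9.73, 9.73 and 9.25 in spiky colonies, against 9.51, 9.57 and 8.61 in cystic colonies. Its fitted difference was -0.69 (SE 0.15, 1.61-fold lower at day 15; limma, Benjamini-Hochberg adjusted p = 0.0081). TMEM97, an NPC1-binding membrane protein, had 10.47, 10.28 and 9.92 in spiky colonies, against 10.50, 10.35 and 9.82 in cystic colonies. It differed by -0.62 (SE 0.10; limma, adjusted p = 0.00301). Of its 3 other bright probe sets 2 had the same sign, and 1 ran the other way at 0.19. ACLY, which makes cytosolic acetyl-CoA from citrate, had 10.71, 10.73 and 10.49 in spiky colonies, against 10.82, 10.86 and 10.32 in cystic colonies. It differed by -0.36 (SE 0.11; limma, adjusted p = 0.031).

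**Figure D3:**
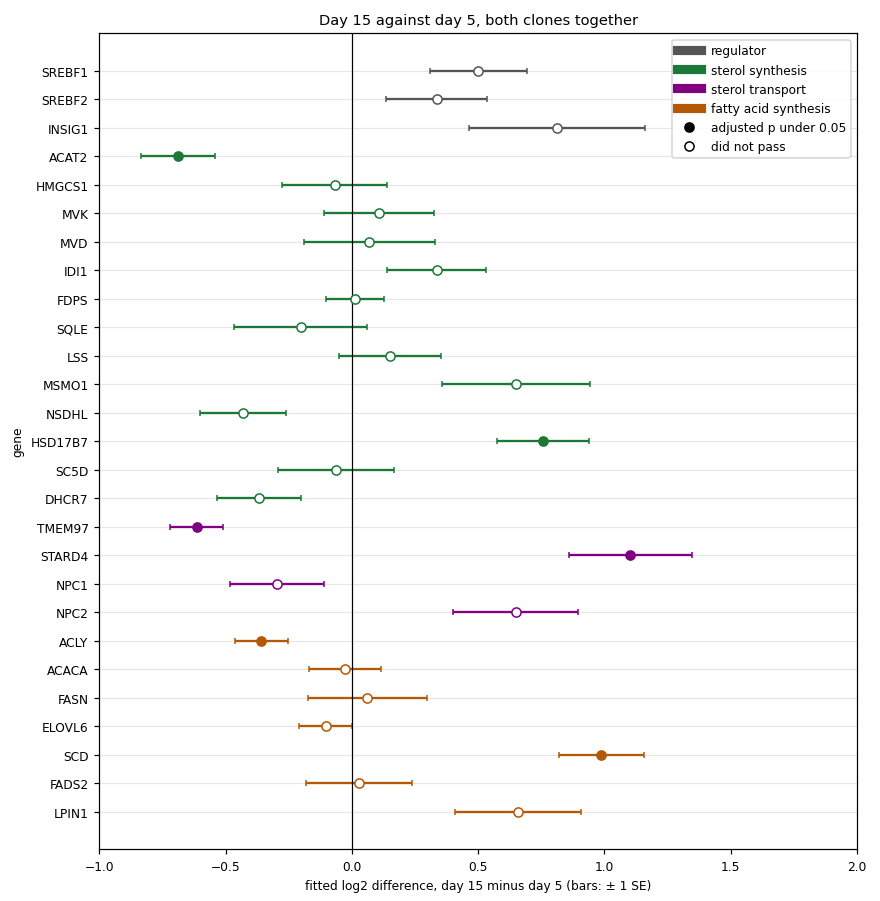
Fitted log2 difference between day 15 and day 5 (x axis; bars are 1 SE) for the 27 genes (y axis, coloured by group), both clones together. Filled points passed an adjusted p of 0.05; they are STARD4, SCD and HSD17B7 on the right and ACAT2, TMEM97 and ACLY on the left.

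Split by step, 0 of 27 members passed in limma between day 10 and day 5, and 0 had an unadjusted p under 0.05. Of all tested genes 2 passed (0.0162%) and 13.5% had an unadjusted p under 0.05. For day 15 against day 10, 5 of 27 passed, compared with 22.6% of all tested genes (8.66% higher and 14.0% lower). SREBF2 rose 1.60-fold at day 15 relative to day 10 (log2 0.67, SE 0.20; limma, Benjamini-Hochberg adjusted p = 0.0405) and SCD 1.68-fold (log2 0.75, SE 0.17; adjusted p = 0.0143). ACAT2, TMEM97 and ACLY fell by 0.72, 0.44 and 0.39 on the log2 scale. The arms again had near medians: between day 15 and day 5 these were 0.01 in the sterol arm, 0.03 in the fatty acid arm and -0.11 over all tested genes. Without the cystic day 15 array the medians between day 15 and day 5 were 0.25 in the sterol arm and 0.27 in the fatty acid arm, and without the spiky day 15 array -0.23 in the sterol arm and -0.22 in the fatty acid arm.

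How many members passed between the days depended on single arrays, as did the share of all tested genes. For day 15 against day 5, 13 of 27 passed without the cystic day 15 array (11 higher), against 35.1% of all tested genes. Without the spiky day 15 array 11 passed (9 lower), against 28.8%. Without the cystic day 10 array 9 passed, against 30.2%, and without the spiky day 10 array 9, against 3691 of 12317 tested genes. Without the cystic day 5 array 3 passed, against 18.0%, and without the spiky day 5 array 0, against 6.18%. For day 15 against day 10, 11 passed without the cystic day 15 array, against 29.0%, and 9 without the spiky day 15 array, against 19.3%. Without the cystic day 10 array 4 passed, against 9.44%, and without the spiky day 10 array 1, against 8.27%. With the cystic or the spiky day 5 array left out 3 passed, against 17.8% and 17.2%.

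The single calls differed in how often they held over 12 alternatives. At day 15 relative to day 5, SCD and TMEM97 passed in 11, STARD4 and ACAT2 in 10, HSD17B7 in 9 and ACLY in 4. At day 15 relative to day 10, SCD and ACAT2 passed in 10, TMEM97 in 7, and SREBF2 and ACLY in 3. The SREBF2 call ended with no filter on dim genes, the mean of all probe sets, centred arrays or no intensity trend, and without any 1 of the arrays other than the cystic day 15 array. The ACLY call relative to day 5 ended with no filter, cyclic loess, no intensity trend, or without any 1 array other than the spiky day 15 array.

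Within each clone the late step ran in different directions. From day 10 to day 15 the median change was 0.31 in spiky and -0.28 in cystic colonies, against 0.01 in spiky and -0.05 in cystic colonies over all tested genes. Of 27 members, 20 were higher at day 15 than at day 10 in spiky and 9 in cystic colonies. Of all 12317 tested genes, 6274 were higher in spiky and 5507 in cystic colonies. The step was higher in spiky than in cystic colonies for 24 of 27 members and 58.1% of all tested genes. It was higher by at least log2 0.5 for 18 of 27 members and 15.4% of all tested genes. Day 15 was the highest array in spiky and the lowest in cystic colonies for 9 of 27 members and 6.37% of all tested genes. Other bright probe sets of some of these 9 genes did not keep this order. From day 5 to day 10 the step was higher in spiky colonies for 5 of 27 members and 37.8% of all tested genes. Of 33 further bright probe sets of these genes, 27 had the same sign of the late step difference as the chosen one.

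**Figure D4:**
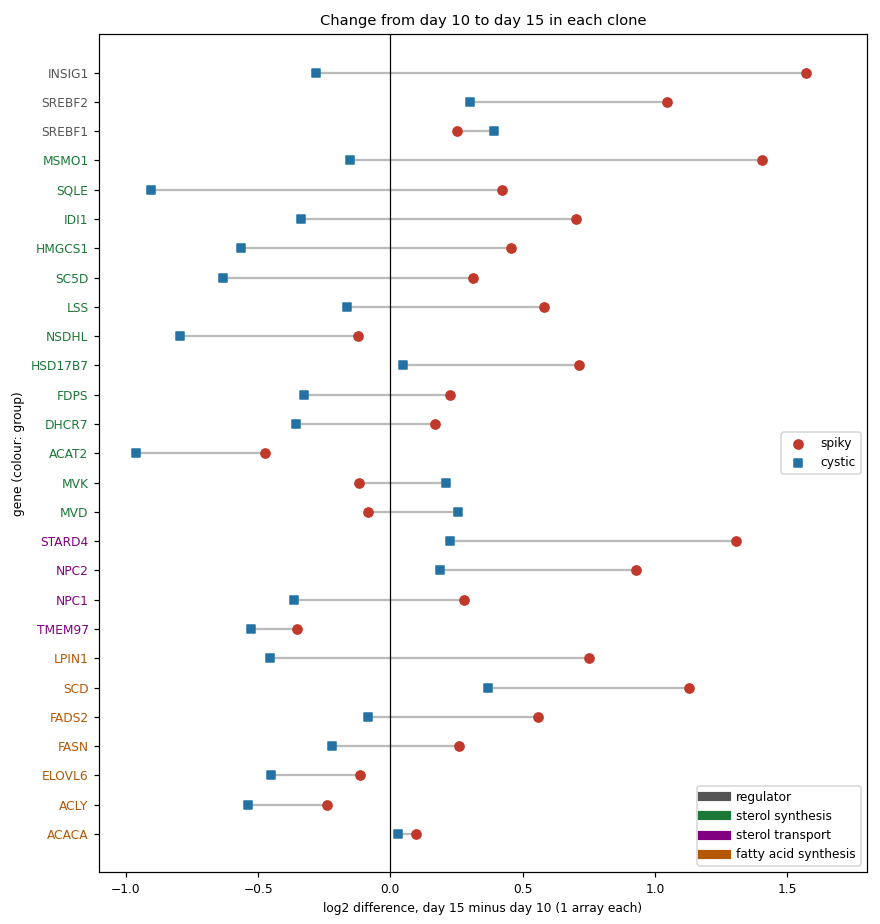
Change from day 10 to day 15 (log2, x axis) of each of the 27 genes (y axis, coloured by group and ordered within it by the difference) in spiky colonies (circles) and cystic colonies (squares), each from 1 array per day. The spiky point lies right of the cystic point for 24 of 27 genes; SREBF1, MVK and MVD are the exceptions.

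INSIG1 had the largest late step difference among the members, 1.57 in spiky and -0.28 in cystic colonies. MSMO1 changed by 1.41 in spiky and -0.15 in cystic colonies. SQLE changed by 0.42 in spiky and -0.91 in cystic colonies. In the fatty acid arm LPIN1, a phosphatidate phosphatase that forms diacylglycerol, had 8.33, 8.44 and 9.20 at day 5, 10 and 15 in spiky colonies, against 7.97, 8.88 and 8.42 in cystic colonies. Its late change was 0.75 in spiky and -0.46 in cystic colonies. The other bright LPIN1 probe set rose in both clones, by 0.32 in spiky and 0.41 in cystic colonies. FASN, the fatty acid synthase, had 6.34, 6.54 and 6.80 in spiky colonies, against 6.98, 6.87 and 6.65 in cystic colonies, so that its lines crossed before day 15. ACACA, which makes malonyl-CoA, stayed between 8.68 and 8.97 on all 6 arrays. FADS2, a desaturase of polyunsaturated fatty acids, was at 7.08, 6.71 and 7.27 in spiky colonies, against 7.34, 7.29 and 7.20 in cystic colonies.

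Among the transport genes, NPC2, which hands cholesterol to NPC1 inside the lysosome, had 10.46, 10.88 and 11.81 in spiky colonies, against 11.29, 11.05 and 11.24 in cystic colonies. NPC1, which exports that cholesterol, had 8.85, 8.62 and 8.90 in spiky colonies, against 9.29, 9.01 and 8.64 in cystic colonies. On these probe sets both genes were lower in spiky colonies at day 5 and 10 and higher at day 15. The other bright NPC1 probe set did not keep this order. It had 6.69, 6.81 and 6.62 at day 5, 10 and 15 in spiky colonies, against 5.51, 6.68 and 6.64 in cystic colonies.

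The difference between the clones in their change over time was tested in the model across all genes. With day as a number, 0 of 27 members and 0% of all tested genes passed, and 3 of 27 members and 2.51% of all tested genes had an unadjusted p under 0.05. A second form was chosen after the values were seen and set day 15 against the mean of day 5 and 10 within each clone. Its spread came only from day 5 against day 10 within each clone, and the single day 15 arrays add nothing to it. With an array of day 5 or 10 left out, 1 residual degree of freedom was left, from the other clone's early arrays. A p-value of this form thus does not measure how well a day 15 value would repeat. In it 0 of 27 members and 0% of all tested genes passed after limma's Benjamini-Hochberg adjustment, while 9 of 27 members and 5.38% of all tested genes had an unadjusted p under 0.05. MSMO1 differed by 1.42 (SE 0.20; limma, adjusted p = 0.0816) and INSIG1 by 1.68 (SE 0.26; limma, adjusted p = 0.10). The other members with an unadjusted p under 0.05 were IDI1, NPC2, HMGCS1, SQLE, FDPS, SCD and NSDHL, with differences of 0.48 to 1.11. Without the cystic day 5 array or without the cystic day 10 array, INSIG1, IDI1, MSMO1 and NPC2 passed, 4 of 27, against 0.341% of all tested genes without the day 5 array and 0.714% without the day 10 array. Without the spiky day 5 or day 10 array 0 members and 0% of all tested genes passed in this second form. With day as a number MSMO1 passed without the spiky day 5 array, 1 of 27, against 0.268% of all tested genes.

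Other measures moved with this divergence. All 6 bright epithelial markers had a higher change at day 15, relative to the mean of day 5 and 10, in spiky than in cystic colonies, with a median difference of 0.43, and 0 of the 6 passed. The members had a median of 0.61 and all tested genes one of 0.02. VIL1, a microvillus protein gene, had 7.06, 6.49 and 7.20 in spiky colonies, against 8.10, 7.21 and 7.48 in cystic colonies. The ACTB 3' to 5' difference was 3.10 at day 15 and 2.74 at day 10 in spiky colonies, and 3.28 at day 15 and 3.18 at day 10 in cystic colonies. That of GAPDH was lower at day 15 than at day 10 in both clones, at 0.49 at day 15 and 0.63 at day 10 in spiky colonies, and 0.63 at day 15 and 0.79 at day 10 in cystic colonies. The part of these measures in the result was not tested.

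Companion genes of the same pathways, listed by function, had smaller medians than the members. For the change at day 15 relative to the mean of day 5 and 10, spiky minus cystic colonies, the median was 0.03 over 9 other sterol and isoprenoid enzymes and -0.03 over 8 genes of SREBP processing and sterol sensing. It was 0.25 over 12 genes of sterol export, esterification and oxysterol metabolism, and 0.23 over 18 genes of fatty acid supply and elongation, 15 of them higher in spiky colonies. Single genes of these 2 lists moved about as far as members. The export genes ranged from -0.44 to 1.83 and the fatty acid supply genes from -0.73 to 1.14, against -0.61 to 1.68 in the members. A large late difference was thus not particular to the members. It was -0.10 over 13 glycerolipid and lipid droplet genes and 0.05 over 15 genes of fatty acid oxidation. These medians are descriptions, and the differences between lists were not tested.

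Between spiky and cystic colonies, where 11.4% of all tested genes passed (3.65% higher and 7.74% lower), 1 of 8 genes of SREBP processing and sterol sensing passed. It was INSIG2, a second INSIG protein gene, which was higher in spiky colonies (log2 0.37, SE 0.10; limma, Benjamini-Hochberg adjusted p = 0.0467). Its levels were 9.48, 9.29 and 9.63 in spiky colonies, against 9.03, 8.94 and 9.31 in cystic colonies. Of 13 glycerolipid genes 1 passed, GPAT3, an acyltransferase that starts glycerolipid synthesis, which was 3.10-fold higher in spiky colonies (log2 1.63, SE 0.17; limma, adjusted p = 0.00081). Of 15 oxidation genes 3 passed. PDK4, a kinase that restrains pyruvate oxidation, was 2.49-fold higher and CPT1A, which admits fatty acids to mitochondria, 2.09-fold higher, while ACADM, a medium-chain dehydrogenase, was 1.55-fold lower. ACSL1, which activates long-chain fatty acids, was the 1 gene of 18 that passed among those of fatty acid supply, at 1.61-fold higher. No gene passed among the other sterol enzymes (0 of 9, with 2 at an unadjusted p under 0.05 in limma) or the export genes (0 of 12, with 2 at an unadjusted p under 0.05). Of all 12317 tested genes 3011 had an unadjusted p under 0.05 in limma in this comparison.

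At day 15 relative to day 5, where 10.4% of all tested genes passed as higher and 21.9% as lower, the companion genes went both ways. Among 9 other sterol and isoprenoid enzymes 3 fell, including COQ2, of ubiquinone synthesis (log2 -0.69), and EBP, a sterol isomerase (log2 -0.35). MBTPS2, a protease that releases SREBPs, fell by 0.59 on the log2 scale, the 1 of 8 sensing genes that passed. Of 12 export genes MYLIP, which targets the LDL receptor for breakdown, rose 2.77-fold and NCEH1, a cholesteryl ester hydrolase, fell 2.04-fold. Among 18 fatty acid supply genes 4 rose and 5 fell. ACACB, the mitochondrial form of acetyl-CoA carboxylase, rose 1.92-fold and SCD5, a second desaturase of the SCD type, 1.64-fold, while MLX, a partner of glucose-sensing transcription factors, fell 1.98-fold and HACD2, an elongation dehydratase, 1.68-fold. GPAT3 fell 4.71-fold and ABHD5, a co-activator of lipid droplet breakdown, 2.01-fold, 2 of 4 glycerolipid genes that fell of 13, with 0 that rose. Of 15 oxidation genes 2 rose and 5 fell, with the smallest p among the rising genes in ACADVL (1.39-fold higher) and PPARGC1A (1.78-fold higher), and among the falling genes in ACAA2 (1.94-fold lower) and SLC25A20 (2.29-fold lower). The genes named here passed in limma with Benjamini-Hochberg adjustment, at adjusted p-values of 0.000433 to 0.0379.

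Among the marker lists, VIL1 was lower in spiky colonies by log2 -0.68 (limma, Benjamini-Hochberg adjusted p = 0.0411), the 1 of 6 epithelial genes that passed. LEP, an adipocyte hormone gene, was higher by 0.81 (limma, adjusted p = 0.0245), 1 of 2 tested adipocyte genes. Of fibroblast genes 0 of 2 and of leukocyte genes 0 of 3 passed, each list with 1 gene at an unadjusted p under 0.05 in limma. That held for 3011 of all 12317 tested genes. At day 15 relative to day 5, KRT18 fell by 0.66 and KRT8 by 0.48 on the log2 scale, and COL1A1, a collagen chain gene, rose 2.60-fold (limma, adjusted p = 0.00203). COL1A1 had 6.41, 6.40 and 7.54 at day 5, 10 and 15 in spiky colonies, against 6.50, 7.02 and 8.12 in cystic colonies. The part of these markers in the change over time was not tested.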

How the data were processed

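Gene expression was measured in a spiky and a cystic HCA-7 clone at day 5, 10 and 15, 1 array each. The deposited values are log2 expression from RMA, as the submitters' processing notes name it; version and settings were not given in the sources used here. There is no read depth on arrays, and precision is limited by how many there are.

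Of 54675 probe sets 41097 had 1 gene symbol in the platform's table, 1801 several and 11777 none; 41043 matched the RefSeq table of GRCh38.p14 by gene ID, which updated symbols. Each gene was its brightest single-symbol probe set, tested at a mean log2 of at least 5. Members, lists and the forms of the tests were chosen with earlier results of these data known. All members were named, and from each companion list up to 2 higher and 2 lower genes with the smallest p among those that passed.

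Models in limma 3.58.1 (R 4.3.3) used all 6 arrays, with day as a factor and clone, an intensity trend, 2 residual degrees of freedom, two-sided tests and Benjamini-Hochberg adjustment at 0.05. Further models used day as a number (per 10 days) or day 15 against the earlier days, each with its interaction with clone. Day was a block because it is part of the design. Deviations from the clone means correlated at 0.608, 0.496 and 0.719 between same-day arrays across genes. The fit was also run on simulated data with noise independent between arrays and genes. Noise shared by the genes of an array was not simulated, so that run does not show how the fit behaves with it. Promoter letters were searched in Python 3.11.15, and figures drawn with matplotlib 3.10.9. Alternatives covered the dim-gene filter, the probe set that stands for a gene, the scaling of arrays, the variance prior, the day block, the arms and each array left out.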

Additional observations from a re-analysis of the deposited data

Results flagged for a closer look

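For 10 genes day 15 was the extreme array of both clones in opposite directions, so that every step to day 15 went one way in spiky and the other way in cystic colonies. Day 15 was the highest array in spiky and the lowest in cystic colonies for 9 of them. This order is that of the chosen probe sets. At least 1 other bright probe set of SQLE, IDI1, SC5D, LSS, NPC1 and FASN did not keep it, while that of HMGCS1 did. On another probe set, day 15 was the highest cystic array for LSS (6.59, 7.09 and 7.43 at day 5, 10 and 15) and for SQLE (7.46, 7.55 and 7.71). The change from day 10 to day 15, spiky minus cystic (log2), was 1.33 for SQLE, 1.04 for IDI1, 1.02 for HMGCS1, 0.94 for SC5D, 0.74 for LSS, 0.64 for NPC1, 0.64 for FADS2, 0.55 for FDPS and 0.48 for FASN. MVD ran the opposite way at -0.34. With 1 array per clone and day these single differences were not tested.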

How the results depend on the processing

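The number of members that passed between spiky and cystic colonies was 2 with a mean of at least 6, with median-centred arrays and with cyclic loess, and 0 with no replicate block (day left out of the model); leaving out an array gave 1 to 10. Between day 15 and day 10 it was 3 with no filter, 2 with the mean of all probe sets and 0 with no intensity trend, and 1 to 11 with an array left out. Leaving out an array gave 0 to 13 between day 15 and day 5, 0 to 1 for the slope and 0 to 4 for day 15 against the earlier days, where leaving out a day 15 array allows no estimate and was not run. The fatty acid arm's median between day 10 and day 5 was -0.0158 with the mean of all probe sets, 0.10 with cyclic loess and 0.11 with wider arms, against 0.04; with an array left out it was -0.000904 to 0.16, and -0.16 to 0.24 in the sterol arm. For day 15 against day 5 the fatty acid arm's median was -0.22 to 0.27. HMGCS1 reversed without the cystic day 15 array: with an array left out it ran from -0.50 to 0.40 for day 15 against day 10 and from -0.52 to 0.38 for day 15 against day 5. FDPS reversed without the spiky day 15 array and ran from -0.23 to 0.25 for day 15 against day 5. Between spiky and cystic colonies 1403 genes of all tested passed (450 higher), against 72 with no replicate block, 691 with no intensity trend, 643 higher of 1446 with centred arrays and 507 to 2157 with an array left out. For day 15 against day 10 it was 2786 (1067 higher), against 1444 with no intensity trend, 859 higher of 3177 with centred arrays, 1324 higher of 2676 with cyclic loess and 1019 to 3577 with an array left out. Between day 15 and day 5 it was 3982 (1287 higher), against 1680 higher of 3739 with cyclic loess and 761 to 4318 with an array left out. Between day 10 and day 5 it was 2, against 0 with no filter, 19 with a mean of at least 6 and 0 to 469 with an array left out. The causes were not tested. With 1 array per clone and day and 1 clone per shape, a value at day 15 has no replicate.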
